A study of Mus musculus with 59 samples.

Results

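The genes described here are 9 genes whose transcription follows ERK activity and whose products, for the most part, restrain it: the MAPK phosphatases Dusp4, Dusp5 and Dusp6, the Sprouty genes Spry1, Spry2 and Spry4, the Sprouty-related gene Spred1, and the ETS factors Etv4 and Etv5. They were taken by symbol from the 24391 genes that each deposited file lists, and all 9 were found. RNA-seq was performed on mouse embryonic stem cells (ESCs) and on embryoid bodies (EBs) of 6 conditional lines, in 59 libraries. ESCs were grown on mouse embryonic fibroblasts (MEFs) with LIF and 3 inhibitors (3i): SU5402 against FGF receptors, PD184352 against MEK1/2 and CHIR99021 against GSK3β. EBs were formed by 2 days of suspension culture without LIF and 3i, so they differ from ESCs in the inhibitors, LIF, the feeder layer and attachment at once, and these cannot be told apart.

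Most results come from 2 lines. The Pcgf1 line carries floxed Pcgf1 alleles (Pcgf1 f/f) and ERT2-Cre, a Cre recombinase that 4-hydroxytamoxifen (4-OHT) switches on. Its 19 libraries are of control ESCs (without 4-OHT, n = 4), Pcgf1-KO ESCs (with 4-OHT, Pcgf1 delta/delta, n = 5), control EBs (n = 5) and Pcgf1-KO EBs (n = 5). The point mutant line, called the Ring1pm line here, carries ERT2-Cre and a Ring1a pm/pm genotype in every group, controls included. 4-OHT also makes its Ring1b alleles pm/pm, and each of its 4 groups holds 2 libraries (n = 2). The other lines have ERT2-Cre with Ring1a-/-;Ring1b f/f (Ring1AB), Pcgf2 f/f;Pcgf4 f/f (Pcgf24), Pcgf3 f/f;Pcgf5 f/f (Pcgf35) or Pcgf6 f/f (Pcgf6), with 8 libraries each. All groups carry the Cre transgene, control and mutant differ in the 4-OHT itself as well as in the allele, and each genotype is represented by 1 line.

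FGF binding to its receptor activates RAS, which passes the signal through RAF and MEK to the kinase ERK. In mouse ESCs this cascade drives the exit from naive pluripotency, and blocking it at the receptor and at MEK holds the cells in the naive state. ERK induces its own brakes. DUSP6 dephosphorylates ERK in the cytoplasm, whereas DUSP4 and DUSP5 act in the nucleus. Sprouty and SPRED proteins act upstream, between the receptor and RAF. ETV4 and ETV5 are transcription factors of the ETS family and are widely read as reporters of FGF signalling.

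Values are TPM as deposited, and differences are on the log2(TPM + 0.1) scale from limma, with SE and Benjamini-Hochberg adjusted p over all genes of the line. A gene is said to have risen or fallen when adjusted p is under 0.05. The knocked-out gene followed the labels: Pcgf1 lay between 10.7 and 13.6 TPM in control ESCs and between 0.627 and 2.77 TPM after its deletion, and EBs ranged from 7.30 to 16.6 TPM in controls and from 0.978 to 2.47 TPM in Pcgf1-KO. A point mutation cannot be checked by TPM. The files give no read counts, so depth is unknown. The identifiers in the file headers of the Pcgf1 line begin with 1 prefix for replicate 1 and 1 for replicates 2 and 3. Replicates 4 and 5 carry 2 further prefixes that their numbers run across, and were treated here as 1 series, which gives 3 series that each hold all 4 groups. Taken alone, the last prefix holds no control ESC, and some same-numbered libraries of replicates 4 and 5 differ in it. Between 6241 and 9139 genes were listed at 0 per library of that line. Nothing in the labels says that replicates come from separate cultures, so p-values measure the spread between these samples, which may be technical. Same-numbered libraries of the Pcgf1 line deviated together, so values with the replicate number as a block are given beside the others where they change a call. Over the 5 comparisons of this line, the replicate block called 24 differences of the 9 genes. A block of the 3 series called the same 24, and a block of the 4 prefixes called 23 of them, without Spry1 in Pcgf1-KO against control EBs (adjusted p = 0.0518). Of the 32 libraries of the other 4 lines, 21 have a file name whose condition differs from the sample label, and these lines are described last.

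The promoters of the 4 genes that changed between control ESCs and control EBs of the Pcgf1 line, Dusp6, Spry1, Spred1 and Spry2, are shown for their ETS motifs, since ETS factors such as ETV4, ETV5 and the ERK substrates ELK1 and ETS1/2 bind GGAAG cores. The sequences are the 250 bases before the RefSeq start of each gene (GRCm38.p6 table), read 5′ to 3′ on the gene's strand. Each matched 1 place on the mm9 chromosomes searched, which were only those of the members with an entry. Capitals mark GGAAG on either strand (CTTCC where it lies on the opposite one).
Dusp6, chr10:98725615-98725864 (plus strand): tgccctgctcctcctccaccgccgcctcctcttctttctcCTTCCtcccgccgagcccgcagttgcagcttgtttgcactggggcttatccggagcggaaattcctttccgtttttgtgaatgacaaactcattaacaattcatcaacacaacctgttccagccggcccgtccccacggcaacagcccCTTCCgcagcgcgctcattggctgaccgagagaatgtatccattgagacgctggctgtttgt
Spry1, chr3:37538619-37538868 (plus strand): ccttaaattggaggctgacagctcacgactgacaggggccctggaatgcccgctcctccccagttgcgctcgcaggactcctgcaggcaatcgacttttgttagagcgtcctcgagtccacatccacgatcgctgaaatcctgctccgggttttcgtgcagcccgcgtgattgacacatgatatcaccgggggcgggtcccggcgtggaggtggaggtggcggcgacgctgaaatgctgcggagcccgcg
Spred1, chr2:116946557-116946806 (plus strand): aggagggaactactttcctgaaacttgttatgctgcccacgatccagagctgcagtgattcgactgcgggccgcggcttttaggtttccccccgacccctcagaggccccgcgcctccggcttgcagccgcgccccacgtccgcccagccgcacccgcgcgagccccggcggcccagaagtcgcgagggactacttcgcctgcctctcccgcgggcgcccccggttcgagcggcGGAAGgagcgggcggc
Spry2, chr14:106296037-106296286 (minus strand): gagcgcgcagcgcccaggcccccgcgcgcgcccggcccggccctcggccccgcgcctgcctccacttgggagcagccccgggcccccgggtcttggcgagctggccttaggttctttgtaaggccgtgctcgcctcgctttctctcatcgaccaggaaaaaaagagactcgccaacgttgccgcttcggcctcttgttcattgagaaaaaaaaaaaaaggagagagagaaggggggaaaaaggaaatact
The Dusp6 window holds 2 GGAAG cores and the Spred1 window 1, with none in those of Spry1 and Spry2. The core is common, as it lies in 64.1% of all 32851 windows of this length. CCGGAAGT, a longer ETS site that contains the core and lies in 2.88% of windows, was in none of the 4. Neither was the AP-1 site TGAGTCA (4.46%) nor the CRE TGACGTCA (1.55%), both strands searched. GC content ran from 56.4% for Dusp6 to 70.8% for Spred1. Dusp5 and Etv5 also have an entry, and Dusp4, Spry4 and Etv4 are named only.

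Removal of LIF and 3i in the Pcgf1 line was accompanied by higher Dusp6, Spry1 and Spred1 and by lower Spry2. Of the 9 genes, 3 rose and 1 fell in control EBs against control ESCs, beside 11.5% of the 20594 genes tested that rose and 13.4% that fell. The median difference of the 9 was 0.86, against -0.0045 for all genes tested. With the replicate number as a block, 7 rose and 1 fell, beside 20.7% and 23.3% of all genes, and Dusp5 alone passed in neither direction. In bulk RNA, a change in RNA per cell and a change in the share of cells that express a gene cannot be told apart.

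Among the phosphatases, Dusp6 was at 28.1, 72.7, 73.5 and 24.9 TPM in control ESCs of replicates 1 to 4 and at 114, 207, 215, 63.1 and 66.1 TPM in control EBs of replicates 1 to 5. Replicates 2 and 3 were the highest in both states, so the ESC values of that series lay above the EB values of replicates 4 and 5, while within every pair the EB was higher. The difference was 1.40 ± 0.50 (2.64-fold, adjusted p = 0.0459), or 1.59 ± 0.092 with the block (adjusted p = 9.22e-09). The unblocked call was lost when any 1 of 7 libraries was left out (control ESC replicate 1 or 4, control EB replicate 1, 2 or 3, or replicate 1 of either Pcgf1-KO group), with adjusted p of 0.0523 to 0.144. It was also lost in a fit of the 2 groups alone (adjusted p = 0.0652) and with a pseudocount of 1 (adjusted p = 0.0501).

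Dusp4 was at 8.01, 24.3, 25.97 and 9.19 TPM in control ESCs and at 31.1, 70.9, 47.4, 21.2 and 21.5 TPM in control EBs. Like Dusp6, it had its highest values in replicates 2 and 3 of both states, and the EB lay above the ESC in all 4 pairs (0.87 to 1.94). The difference, 1.22 ± 0.51, did not pass without the block (adjusted p = 0.0939) and passed with it (1.34 ± 0.16, adjusted p = 1.2e-05). Dusp5, the other nuclear phosphatase, was at 12.97, 52.9, 35.4 and 18.1 TPM in control ESCs and at 12.98, 36.6, 51.05, 18.5 and 16.3 TPM in control EBs. Its groups overlapped fully, and it differed by -0.12 ± 0.53 (95% interval -1.23 to 0.98, adjusted p = 0.92). Within control ESCs alone, Dusp5 ranged from 12.97 to 52.9 TPM, with replicates 2 and 3 highest.

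The 3 Sprouty genes did not move together. Spry1 was at 11.3, 17.03, 17.5 and 13.8 TPM in control ESCs and at 40.6, 50.5, 42.8, 38.3 and 37.5 TPM in control EBs. Every EB lay above every ESC, and the rise was 2.82-fold (1.5 ± 0.17, adjusted p = 3.74e-06). Spry2, whose level in ESCs was the highest of the 3, went the other way, from 189, 280.1, 263 and 200.2 TPM in control ESCs to 125, 157, 164, 76.7 and 77.4 TPM in control EBs. It fell 2.01-fold without overlap between the groups (-1.01 ± 0.27, adjusted p = 0.00874). Spry4 was at 27.6, 52.3, 47.9 and 25.7 TPM in control ESCs and at 35.3, 78.8, 75.2, 36.7 and 39.4 TPM in control EBs. The groups overlapped across library series, all 4 pairs were higher in EBs (0.36 to 0.65), and the difference of 0.44 ± 0.39 passed only with the block (0.54 ± 0.19, adjusted p = 0.0289; adjusted p = 0.46 without it).

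Spred1, whose product binds neurofibromin and restrains RAS, varied little between the library series. It was at 24.1, 23.6, 25 and 21.4 TPM in control ESCs and at 42.2, 41.8, 46.98, 42.6 and 40.7 TPM in control EBs, and rose 1.82-fold without overlap (0.86 ± 0.16, adjusted p = 0.000472). Etv4 was at 17.2, 33.3, 34.3 and 57.4 TPM in control ESCs and at 29.9, 82.1, 76.9, 63.4 and 65.5 TPM in control EBs. Replicate 1 was the lowest library of Etv4 in both states, and the difference of 0.88 ± 0.35 had an adjusted p of 0.0765, or 0.000363 with the block. Leaving out control EB replicate 1 or control ESC replicate 4 also brought it under 0.05 (0.0186 to 0.0256). Etv5, among the most abundant of the 9, was at 227, 266, 264 and 134 TPM in control ESCs and at 264, 456, 350.1, 233 and 228 TPM in control EBs. It was higher in the EB of all 4 pairs, by 0.22 to 0.79, with 0.45 ± 0.31 overall (adjusted p = 0.323), or 0.56 ± 0.11 with the block (adjusted p = 0.000751).

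**Figure D1:**
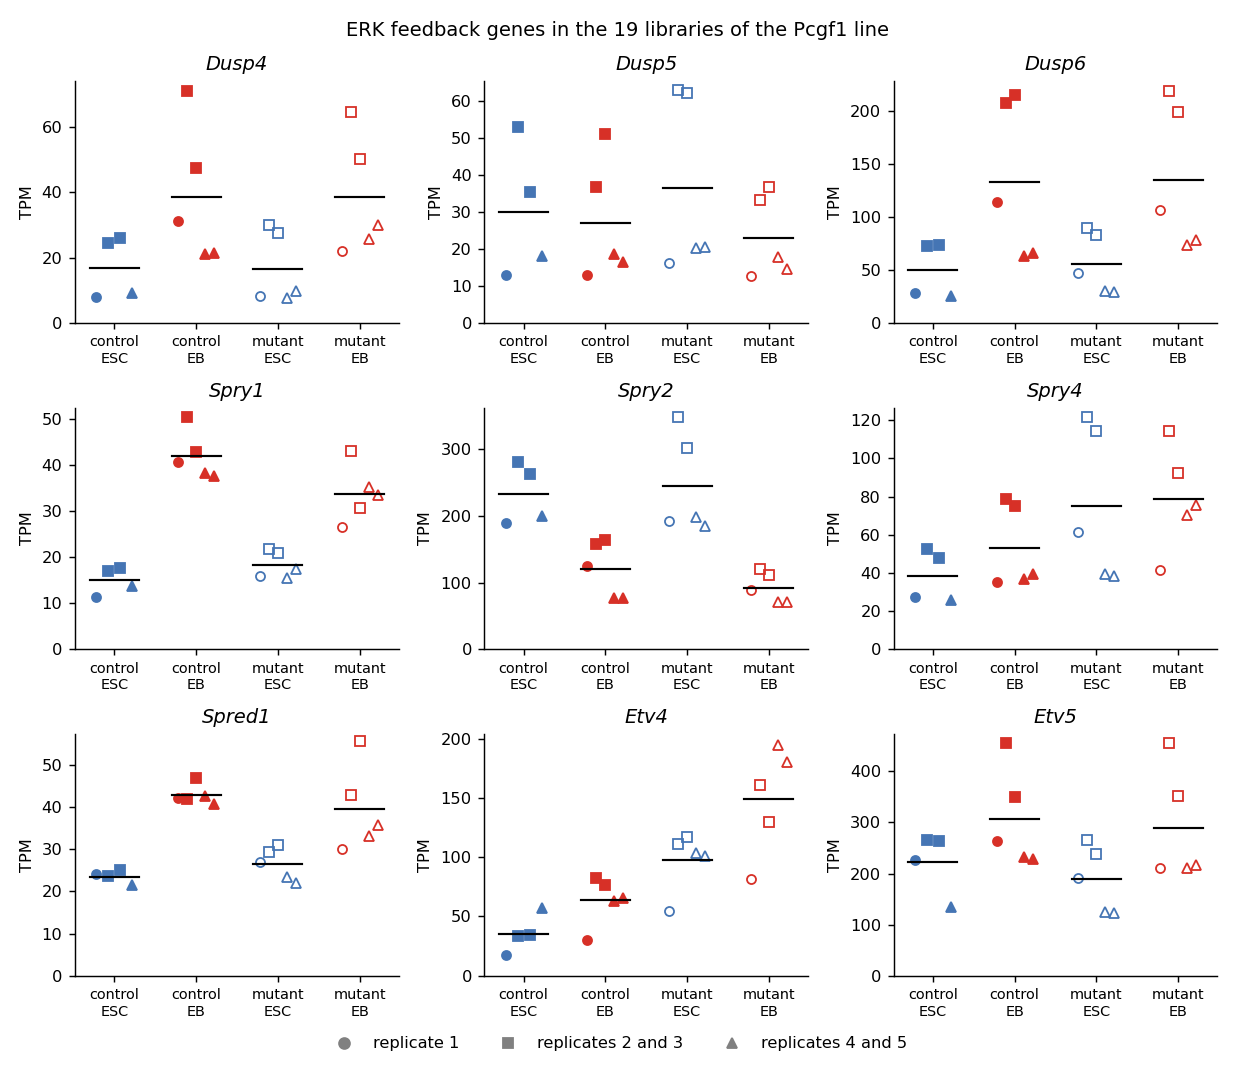
TPM of the 9 ERK feedback genes in each library of the Pcgf1 line, by group (x axis: control and Pcgf1-KO mutant ESCs in blue, EBs in red; open symbols, mutant; symbol shape, library series; bar, group mean; y axis, TPM from 0). Spry1 and Spred1 of control EBs lie above those of control ESCs without overlap and Spry2 lies below, while Dusp4, Dusp5, Dusp6 and Spry4 spread by library series, with replicates 2 and 3 highest.

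Markers of the feeder layer moved with the same comparison. Of 13 fibroblast markers, 11 had a mean of at least 1 TPM in control ESCs, and their summed level was 274 to 347 TPM in control ESCs against 41.7 to 84.9 TPM in control EBs, with Col1a1 at means of 168 and 5.43 TPM and none of the 13 at 0 in every library of either group. In this list 8 fell and 2 rose (Thy1 and Dcn), with Postn at means of 3.24 and 0.0878 TPM. The part of these markers in the differences of the 9 genes was not tested. The labelled states were checked against their markers. Of 7 pluripotency markers, 5 fell (Klf2 decreased by 2.76 and Tbx3 decreased by 4.55 on the log2 scale). The 2 others were Sox2, at means of 607 and 405 TPM (adjusted p = 0.084), and Pou5f1, at means of 1387 and 1464 TPM. All 4 of 4 formative epiblast markers rose, Otx2 by 2.18 ± 0.32, Pou3f1 by 6.12 ± 0.55 and Dnmt3b from a mean of 33.8 to 1492 TPM. Of 7 primitive endoderm markers 1 rose (Dab2) and 2 fell (Pdgfra and Sox17), of 6 primitive streak markers 2 fell (Eomes and Gsc), of 4 trophoblast markers 1 fell (Gata3), and of 3 neural markers 1 rose (Pax6, at means of 0.168 and 3.53 TPM). Gata4 (means of 2.75 and 1.84 TPM) and Gata6 (1.29 and 0.678 TPM) had adjusted p of 0.32 and 0.346. For the streak genes T (1.27 and 1.41 TPM) and Mixl1 (0.354 and 1.18 TPM) it was 0.808 and 0.128, and for the neural genes Sox1 (2.74 and 6.72 TPM) and Nes (12.98 and 21.3 TPM) 0.0874 and 0.752.

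Around these genes, other parts of the pathway did not all move one way. Of 16 other ERK output and feedback genes tested, 3 rose and 4 fell in control EBs (median 0.32), or 7 and 6 with the block. The ETS factor Etv1 rose from a mean of 1.73 to 22.7 TPM (3.58 ± 0.45, adjusted p = 1.36e-05), and Spred3 from 1.53 to 16.2 TPM (3.09 ± 0.71, adjusted p = 0.00331). The receptor Epha4 fell from 30.02 to 5.94 TPM (-2.47 ± 0.34, adjusted p = 3.69e-05). The lowest value of this list was that of Egr1, which is also an immediate early gene.

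Immediate early genes, which growth factor signalling induces without new protein synthesis, were lower in EBs. Of 12, 11 fell and none rose in control EBs, with a median of -3.62. Fos fell from a mean of 511 TPM in control ESCs to 1.87 TPM in control EBs (-8.23 ± 0.52, adjusted p = 6.76e-09), and Fosb from 132 to 0.152 TPM (-9.03 ± 0.36, adjusted p = 2.97e-11). Egr1 decreased by 5.87 on the log2 scale, from 421 to 7.32 TPM. The smallest differences were those of Ier2, which fell (-1.01 ± 0.18, adjusted p = 0.000438), and of Btg2, at means of 24.5 and 26.1 TPM (adjusted p = 0.935).

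At the top of the cascade, 3 of 6 FGF ligand genes rose. Fgf5 went from a mean of 0.152 to 46.2 TPM (7.58 ± 0.60, adjusted p = 9.3e-08), Fgf15 from 1.54 to 28.4 TPM (4.18 ± 0.28, adjusted p = 1.69e-08), and Fgf8 also rose. Fgf4, the main autocrine ligand of ESCs, was at 260.2 and 204 TPM (-0.37 ± 0.20, adjusted p = 0.203, or 0.0429 with the block), and Fgf3 at 5.69 and 3.36 TPM (adjusted p = 0.115, or 0.0363 with the block), so that 2 ligand genes fell with the block. Of 5 FGF receptor genes, Fgfr2 (1.76 ± 0.59, adjusted p = 0.0357) and the decoy-like Fgfrl1 (0.52 ± 0.15, adjusted p = 0.0156) rose. Fgfr3 and Fgfr4, which had the lowest values, were at means of 1.31 and 2.36 TPM in control EBs, and Fgfr4 fell with the block (adjusted p = 0.0473), where 3 receptor genes rose and 1 fell.

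Among 21 genes of the RAS-ERK cascade itself, 5 rose and 2 fell (median -0.011), or 8 and 7 with the block. Hras rose (1.17 ± 0.20, adjusted p = 0.000273), and the adaptor Grb2 fell (-0.55 ± 0.18, adjusted p = 0.0314). The scaffold Ksr1 was at -1.54 ± 0.60 (adjusted p = 0.071) and passed with the block (adjusted p = 6.11e-05). Readouts of the other signals removed at the same time moved too. Of 10 Wnt feedback and target genes, 2 fell, Sp5 (-4.75 ± 0.64, adjusted p = 2.52e-05) and Axin2 (-2.20 ± 0.39, adjusted p = 0.000388), and 3 rose, among them Lef1 (2.51 ± 0.69, adjusted p = 0.0115) and Nkd1 (1.47 ± 0.35, adjusted p = 0.00425). Of 7 genes of the LIF-STAT3 axis, 5 fell, with Klf4 going from a mean of 958 to 7.42 TPM and Tfcp2l1 from 472 to 13.97 TPM, Pim1 was at 294 and 161 TPM (adjusted p = 0.0504), and Gbx2 rose (1.60 ± 0.37, adjusted p = 0.0033).

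**Figure D2:**
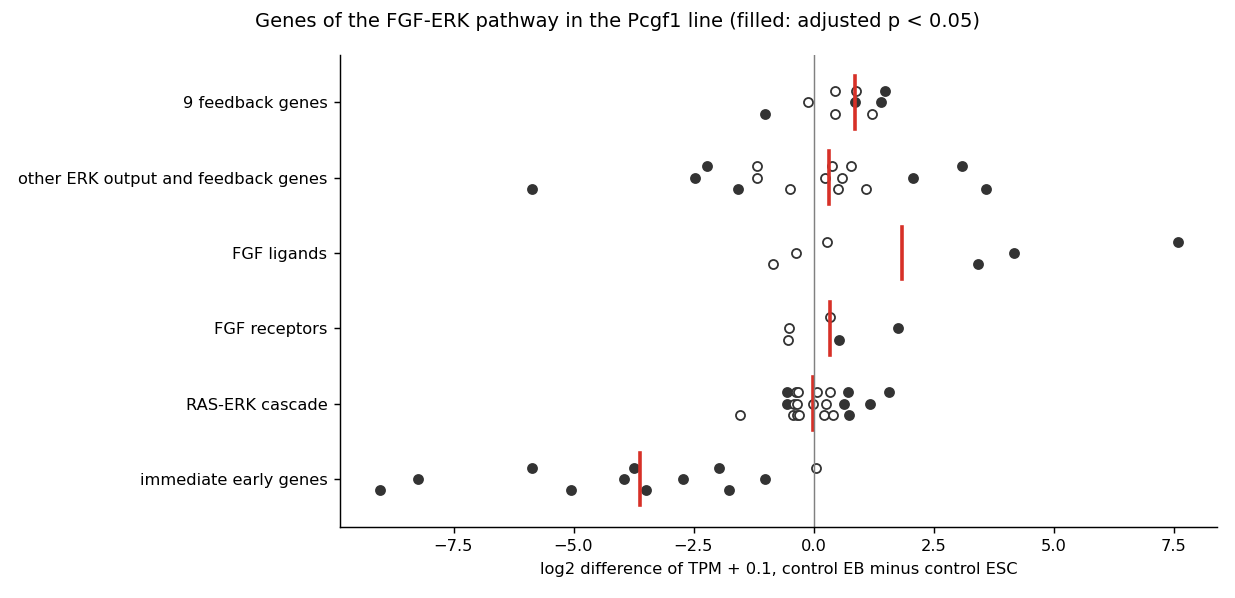
Difference between control EBs and control ESCs of the Pcgf1 line for each gene of 6 lists of the FGF-ERK pathway (x axis, log2 difference of TPM + 0.1; filled points, adjusted p under 0.05; red line, median of the list). The 9 feedback genes lie between -1.01 and 1.5, whereas 11 of 12 immediate early genes lie below 0 and pass the test.

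In Pcgf1-KO cells, Spry1 and Spred1 rose and Spry2 fell, as in controls. In Pcgf1-KO EBs against Pcgf1-KO ESCs, 2 of the 9 genes rose and 1 fell, beside 8.13% and 10.2% of all genes tested. With the block, 6 rose and 2 fell, beside 16.8% and 20%. Spry1 was at 15.8, 21.7, 20.9, 15.5 and 17.3 TPM in Pcgf1-KO ESCs of replicates 1 to 5 and at 26.5, 42.99, 30.6, 35.1 and 33.5 TPM in Pcgf1-KO EBs. The groups did not overlap, and the rise was 1.84-fold (0.88 ± 0.16, adjusted p = 0.000586).

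Spry2 was at 192, 349, 302, 198 and 185 TPM in Pcgf1-KO ESCs and at 88.2, 120.4, 111, 71.5 and 70.9 TPM in Pcgf1-KO EBs. It fell 2.62-fold, again without overlap (-1.39 ± 0.25, adjusted p = 0.000599). Spred1 was at 26.9, 29.4, 30.96, 23.3 and 21.99 TPM in Pcgf1-KO ESCs and at 30.1, 42.8, 55.6, 33.1 and 35.6 TPM in Pcgf1-KO EBs. Replicate 1 of the Pcgf1-KO EBs lay within the range of the ESCs, and the rise was 1.46-fold (0.55 ± 0.15, adjusted p = 0.0131). A fit of the 2 groups alone gave an adjusted p of 0.0671.

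Dusp6 was at 47.5, 89.8, 82.9, 30.4 and 28.8 TPM in Pcgf1-KO ESCs and at 107, 219, 199, 73.9 and 78.1 TPM in Pcgf1-KO EBs. All 5 pairs were higher in EBs (1.17 to 1.44), and the difference of 1.29 ± 0.47 (adjusted p = 0.0659) passed with the block (adjusted p = 3.32e-08). Dusp4 was at 8.32, 29.9, 27.6, 7.47 and 9.65 TPM in Pcgf1-KO ESCs and at 22.1, 64.5, 50.2, 25.5 and 30.05 TPM in Pcgf1-KO EBs. It too was higher in all 5 pairs (0.86 to 1.76), with 1.35 ± 0.48 and adjusted p of 0.0599, or 6.54e-06 with the block. Both also passed without the block when Pcgf1-KO ESC replicate 2 was left out, Dusp4 when replicate 3 was, and Dusp6 when Pcgf1-KO EB replicate 4 was (adjusted p of 0.0284 to 0.0339 for Dusp4 and 0.0445 to 0.0479 for Dusp6).

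Dusp5 was at 16.2, 62.9, 62.2, 20.3 and 20.4 TPM in Pcgf1-KO ESCs and at 12.6, 33.1, 36.7, 17.8 and 14.5 TPM in Pcgf1-KO EBs. All 5 pairs were lower in EBs (-0.92 to -0.18), which passed with the block (-0.54 ± 0.13, adjusted p = 0.00304) and not without it (adjusted p = 0.528). Etv4 (0.60 ± 0.33, adjusted p = 0.247) and Etv5 (0.61 ± 0.29, adjusted p = 0.17) were higher in all 5 pairs and passed only with the block (adjusted p = 0.00319 and 0.000265). Spry4 was higher in 2 pairs and lower in 3, from -0.58 to 0.98 (0.17 ± 0.37, adjusted p = 0.843).

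**Figure D3:**
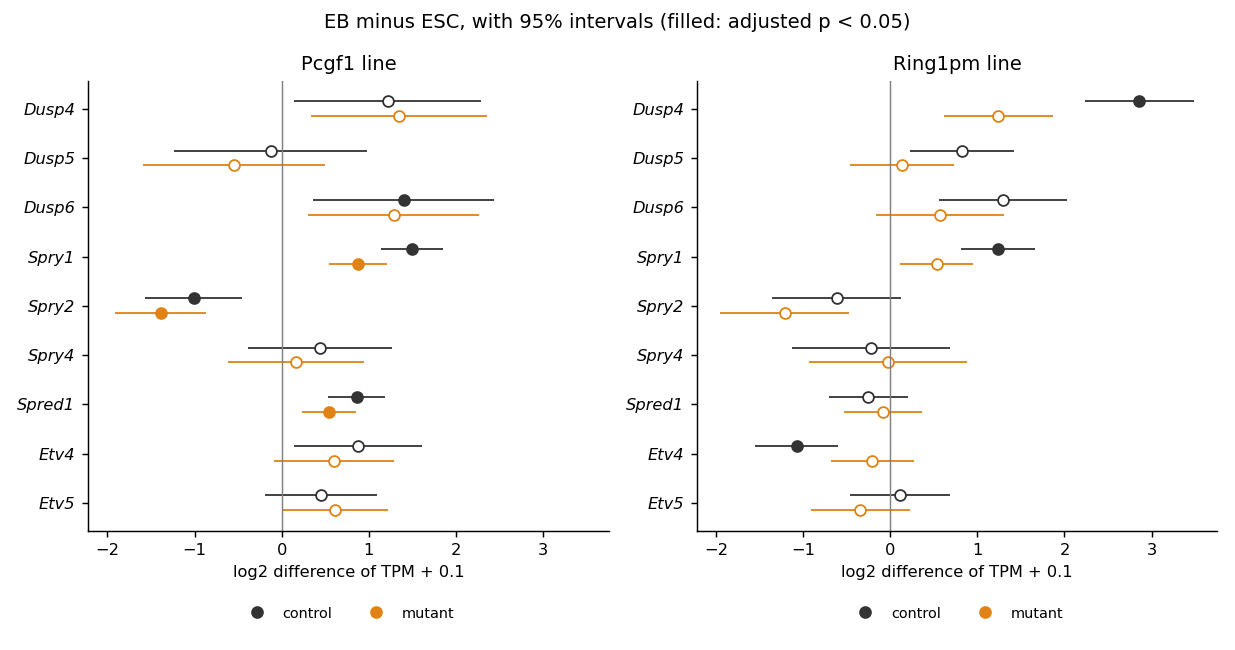
EB minus ESC difference of each of the 9 genes in control and mutant cells of the Pcgf1 line and of the Ring1pm line (x axis, log2 difference of TPM + 0.1; points, limma estimate without a block; bars, 95% interval; filled, adjusted p under 0.05). In control cells Spry1 lies above 0 in both lines, at 1.5 and 1.24, while Etv4 lies at 0.88 in the Pcgf1 line and at -1.08 in the Ring1pm line.

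Etv4 and Spry4 were higher in Pcgf1-KO than in control cells of every pair, in both states, and passed the test with the block but not without it. Without the block, limma called none of the 9 genes between Pcgf1-KO and control ESCs, where 2 had an unadjusted p under 0.05 and 0.32% of all genes rose and 0.32% fell. In EBs it also called none, with 1 at an unadjusted p under 0.05, beside 1.08% of all genes that rose and 0.874% that fell. With the block, 3 rose in ESCs (Etv4, Spry4 and Dusp6) and none fell, beside 2.53% and 2.78%. In EBs, 2 rose (Etv4 and Spry4) and 2 fell (Spry1 and Spry2), beside 4.83% and 5.58%. Over all genes, the share of calls in EBs that were higher was 55.2%, and 66.7% after quantile normalization.

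Etv4 was at 17.2, 33.3, 34.3 and 57.4 TPM in control ESCs and at 54.4, 111, 117, 104 and 101 TPM in Pcgf1-KO ESCs. The knockout was higher in all 4 pairs (0.85 to 1.76), but control replicate 4 lay above Pcgf1-KO replicate 1, so that the groups overlapped. The difference was 2.88-fold (1.53 ± 0.35), with an adjusted p of 0.0536, or 0.000255 with the block. In EBs, Etv4 was at 29.9, 82.1, 76.9, 63.4 and 65.5 TPM in controls and at 81.3, 160.5, 129.8, 195 and 180.1 TPM in Pcgf1-KO. It was higher in all 5 pairs (0.75 to 1.62), the highest control lay just above the lowest knockout, and the difference was 2.38-fold (1.25 ± 0.33), with an adjusted p of 0.0607, or 7.39e-05 with the block. Without the block it also passed with median-of-ratios scaling (adjusted p = 0.0174 in ESCs and 0.0175 in EBs), with quantile normalization (0.0196 and 0.0269) and over genes with a mean of at least 1 TPM (0.0439 and 0.0499). Each fell under 0.05 when Pcgf1-KO ESC replicate 1, Pcgf1-KO EB replicate 1, control ESC replicate 4 or, for ESCs only, control EB replicate 1 and, for EBs only, control ESC replicate 1 was left out (0.0245 to 0.0433 in ESCs and 0.0264 to 0.0492 in EBs).

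Spry4 was at 27.6, 52.3, 47.9 and 25.7 TPM in control ESCs and at 61.7, 122, 115, 39.5 and 38.2 TPM in Pcgf1-KO ESCs. It was higher in the knockout of all 4 pairs (0.62 to 1.26), with 0.86 ± 0.39 (adjusted p = 0.54), or 0.96 ± 0.19 with the block (adjusted p = 0.00894). In EBs it was at 35.3, 78.8, 75.2, 36.7 and 39.4 TPM in controls and at 41.3, 115, 92.6, 70.4 and 75.5 TPM in Pcgf1-KO. All 5 pairs were again higher in the knockout (0.22 to 0.94; 0.59 ± 0.37, adjusted p = 0.641, or 0.0421 with the block). Dusp6 in Pcgf1-KO ESCs was higher in all 4 pairs, by 0.17 to 0.75 (with the block 0.37 ± 0.092, adjusted p = 0.0312; adjusted p = 1 without it), while in EBs the difference was 0.066 ± 0.47 (95% interval -0.92 to 1.05).

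Spry1 and Spry2 went the other way in EBs, where both were lower in Pcgf1-KO in all 5 pairs, by -0.61 to -0.12 for Spry1 and -0.56 to -0.10 for Spry2. Both passed with the block (adjusted p = 0.0435 and 0.0428) and not without it (0.443 and 0.715), and Spry1 missed the threshold with the block of 4 prefixes. The remaining genes differed by -0.092 ± 0.51 (Dusp4), 0.24 ± 0.53 (Dusp5), 0.16 ± 0.16 (Spred1) and -0.26 ± 0.31 (Etv5) in ESCs. In EBs these differences were 0.042 ± 0.48, -0.18 ± 0.50, -0.15 ± 0.15 and -0.11 ± 0.29. The 95% intervals without the block were wide for the phosphatases, at -1.16 to 0.98 for Dusp4 and -0.86 to 1.35 for Dusp5 in ESCs.

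The test of whether the knockout altered the EB minus ESC difference (the interaction) called none of the 9 without the block. Of these, 1 had an unadjusted p under 0.05, and 0% and 0.00486% of all genes were called in the positive and the negative direction. With the block, Spry1 was called, with a rise smaller by 0.64 on the log2 scale in Pcgf1-KO (-0.64 ± 0.14, adjusted p = 0.0382), beside 0.835% and 0.782% of all genes. The interaction of Etv4 was -0.28 ± 0.48 (95% interval -1.29 to 0.73) and that of Spry4 -0.28 ± 0.54 (95% interval -1.41 to 0.86), so neither was shown to differ between the states. Fibroblast markers had a summed level between 226 and 287 TPM in the Pcgf1-KO ESCs and of 29.6 to 53.2 TPM in Pcgf1-KO EBs. The ranges overlapped with those of the controls, but the sum was lower in Pcgf1-KO in 4.0 of 4.0 pairs of ESCs (0.765 to 0.942 of the control) and in 5.0 of 5.0 pairs of EBs (0.585 to 0.761 of the control). Of the 13, Thy1 fell and Twist1 rose in Pcgf1-KO EBs, and none was called in ESCs.

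Markers of other states moved with the knockout too. In Pcgf1-KO against control EBs, 3 of 7 primitive endoderm markers rose (Gata4, Gata6 and Pdgfra), or 5 with the block, with a median of 1.56. Gata6, a defining factor of that lineage, went from a mean of 0.678 to 4.85 TPM (adjusted p = 0.0223). Of 7 LIF-STAT3 genes, 3 rose (Bcl3, Gbx2 and Tfcp2l1), or 5 with the block, and none fell. Of 4 formative markers none was called without the block and 2 fell with it (Dnmt3b and Pou3f1), with a median of -1.09. With the block, 2 of 7 pluripotency markers rose (Esrrb and Tbx3), 1 trophoblast marker rose (Hand1) and 1 neural marker fell (Pax6). Eomes of the streak list rose with and without the block. In ESCs without the block, Otx2 fell from a mean of 24.4 to 5.18 TPM (adjusted p = 0.00522) and no other marker of these lists was called. With the block, Gbx2, Dnmt3b, Sox7 and Sox1 rose in ESCs as well. The part of all these markers, fibroblast markers included, in the differences of the 9 genes was not tested.

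**Figure D4:**
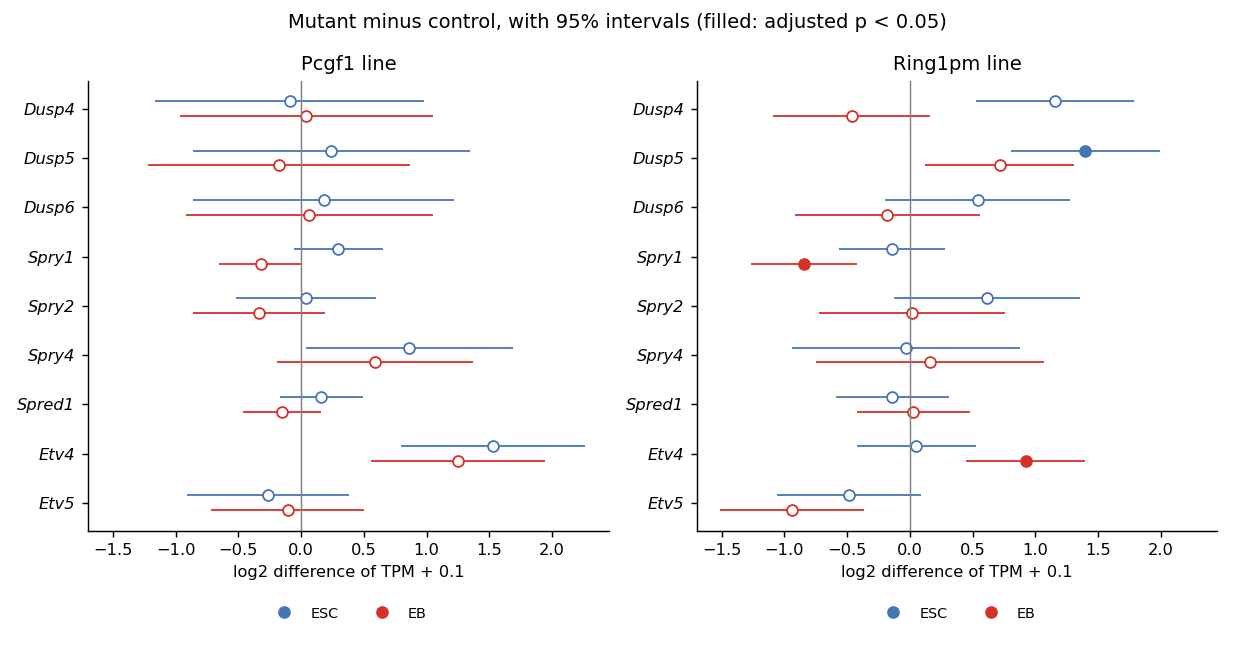
Mutant minus control difference of each of the 9 genes in ESCs and EBs of the Pcgf1 line and of the Ring1pm line (x axis, log2 difference of TPM + 0.1; points, limma estimate without a block; bars, 95% interval; filled, adjusted p under 0.05). In the Pcgf1 line Etv4 has the largest values, 1.53 in ESCs and 1.25 in EBs, both just short of the threshold without the block. In the Ring1pm line Dusp5 in ESCs and Spry1 and Etv4 in EBs are filled.

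Around them, 2 of 16 other outputs of ERK signalling rose in Pcgf1-KO EBs without the block. The ERK phosphatase Dusp9 rose from a mean of 221 to 428 TPM (0.97 ± 0.20, adjusted p = 0.0145) and Phlda1 from 8.12 to 31.3 TPM (1.94 ± 0.37, adjusted p = 0.00852). Both, with the receptor Epha2, were higher in both states with the block (Epha2 0.92 ± 0.14, adjusted p = 0.0026 in ESCs and 1.56 ± 0.13, adjusted p = 1.11e-05 in EBs). In ESCs, none of the lists of FGF ligands, FGF receptors, RAS-ERK cascade, immediate early genes and other ERK outputs had a called gene without the block. With it, 4 of 16 other ERK outputs, 3 of 12 immediate early genes, 2 of 5 receptors and 1 of 21 cascade genes rose, and 1 of 6 ligands fell (Fgf4, -0.71 ± 0.14, adjusted p = 0.0112). In EBs, 2 other ERK outputs and 1 immediate early gene (Atf3) rose without the block and none of these 5 lists had a gene that fell. With the block, 3 and 1 other ERK outputs, 3 and 1 immediate early genes, and 2 and 3 cascade genes were higher and lower.

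In the Ring1pm line, whose controls carry the Ring1a point mutation, Dusp4 and Spry1 rose and Etv4 fell in control EBs against control ESCs. These are 2 and 1 of the 9 genes, beside 2.73% and 2% of the 20279 genes tested, and the median of the 9 was 0.11 against 0 for all genes. Dusp4 went from 4.44 and 4.32 TPM in control ESCs to 35.1 and 29.9 TPM in control EBs, the widest among the 9 in control cells of these 2 lines (7.25-fold, 2.86 ± 0.27, adjusted p = 0.00265). Spry1 went from 12.03 and 14.6 to 28.9 and 34.2 TPM (1.24 ± 0.18, adjusted p = 0.013).

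Etv4 went the other way from the Pcgf1 line, from 164 and 128 TPM in control ESCs to 77.4 and 60.9 TPM in control EBs (2.11-fold lower, -1.08 ± 0.20, adjusted p = 0.0305). With 2 libraries per group these calls were not stable. Leaving out any 1 of the 8 libraries ended the call of Etv4 (adjusted p of 0.0703 to 0.209). Any library of the control groups or of the mutant ESCs did so for Spry1 (0.0531 to 0.0909), and control ESC replicate 2 or either control EB for Dusp4 (0.0506 to 0.0584). The directions did not turn for these 3.

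Dusp6 was at 32.3 and 19.9 TPM in control ESCs and at 71.4 and 54.4 TPM in control EBs (1.29 ± 0.31, adjusted p = 0.0653). Dusp5 was at 5.02 and 4.61 TPM in control ESCs and at 7.23 and 10.1 TPM in control EBs (0.82 ± 0.26, adjusted p = 0.126). Spry2 was at 118 and 70.6 TPM in control ESCs and at 62.8 and 56.3 TPM in control EBs, lower in EBs as in the Pcgf1 line but short of the threshold (-0.61 ± 0.32, adjusted p = 0.333). The groups of Spry4 and Etv5 overlapped, and the interval of Spred1 included 0. Spry4 was at 78.6 and 37.99 TPM in control ESCs and at 54.7 and 39.9 TPM in control EBs (-0.22 ± 0.39). Spred1 was at 22.2 and 17.01 TPM in control ESCs and at 16.5 and 16.2 TPM in control EBs (-0.25 ± 0.19, 95% interval -0.70 to 0.20). Etv5 was at 269 and 169.6 TPM in control ESCs and at 244 and 218 TPM in control EBs (0.11 ± 0.24).

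A joint fit of both lines tested whether the EB minus ESC difference in controls was the same in the Ring1pm line as in the Pcgf1 line. Only Spred1 passed, at -1.12 ± 0.27 (adjusted p = 0.0211), and none of the 9 passed in the positive direction, beside 1.12% and 2.36% of all 21378 genes tested. Leaving out Ring1pm control ESC replicate 1 or control EB replicate 2 ended this call (adjusted p of 0.0932 to 0.175). The difference for Etv4 was larger, -1.96 ± 0.58 (95% interval -3.16 to -0.75, adjusted p = 0.0647), and passed when replicate 1 of the Pcgf1-line control or Pcgf1-KO EBs or control ESC replicate 4 was left out (0.024 to 0.0467). With line and replicate number as a block, Etv4 (-1.91, adjusted p = 0.000125) and Spred1 (-1.15, adjusted p = 0.0013) were lower in the Ring1pm line. Dusp4 (1.52, adjusted p = 0.00177) and Dusp5 (0.81, adjusted p = 0.038) were higher. The shares of all genes given above are those without the block, and none is given for the fit with it. The 2 lines carry different series identifiers, so line and series cannot be told apart.

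After 4-OHT in the Ring1pm line, Dusp5 was higher in ESCs, and in EBs Etv4 was higher and Spry1 lower. In ESCs, 1 of the 9 rose and none fell, beside 2.34% and 0.197% of all genes, and in EBs 1 rose and 1 fell, beside 3.76% and 0.764%. The median of all genes was itself 0.12 higher in mutant ESCs and 0.10 higher in mutant EBs as deposited, and at 0 after median-of-ratios scaling. The share of all calls that were higher was 92.2% in ESCs and 83.1% in EBs, or 80.7% and 61.7% after quantile normalization. Fibroblast markers had a summed level between 57.9 and 66.1 TPM in the control ESCs, of 116 to 146 TPM in mutant ESCs, and of 40.01 to 44.95 and 105 to 111 TPM in the EBs. In mutant EBs 5 of the 13 rose, and Lum was at 0 in all control libraries. Of 4 formative markers 3 fell in mutant EBs (Fgf5, Otx2 and Pou3f1, median of the list -1.97). In the same comparison 2 of 4 trophoblast markers (Gata3 and Hand1, median 2.67), 2 of 6 streak markers (T and Mesp1) and 2 of 7 primitive endoderm markers (Gata6 and Pdgfra) rose. So did 2 of 7 pluripotency markers (Nanog and Tbx3), 2 of 7 LIF-STAT3 genes (Klf4 and Socs3) and 1 of 3 neural markers (Nes). In mutant ESCs, 2 primitive endoderm markers (Gata4 and Gata6), 1 trophoblast (Hand1), 1 streak (Mesp1) and 1 neural marker (Nes) rose and the naive marker Klf2 fell. The part of these markers in the differences of the 9 genes was not tested.

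Dusp5 was at 5.02 and 4.61 TPM in control ESCs and at 14.9 and 11.05 TPM in mutant ESCs (2.64-fold, 1.40 ± 0.26, adjusted p = 0.0384). The groups did not overlap, which says little with 2 libraries in each, and the share of all genes without overlap is not given. The call was lost with quantile normalization (1.11, adjusted p = 0.0971) and whichever library was left out. Dusp4 was at 11.6 and 8.40 TPM in mutant ESCs, above both controls, and did not pass (1.16 ± 0.27, adjusted p = 0.0737). The other 7 genes were not called in ESCs, with differences of 0.54 ± 0.31 (Dusp6), -0.14 ± 0.18 (Spry1), 0.61 ± 0.32 (Spry2), -0.033 ± 0.39 (Spry4), -0.14 ± 0.19 (Spred1), 0.052 ± 0.20 (Etv4) and -0.48 ± 0.24 (Etv5) and adjusted p of 0.392 to 1.

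In EBs, Etv4 was at 77.4 and 60.9 TPM in controls and at 151 and 112 TPM in mutants (0.92 ± 0.20, adjusted p = 0.0497). With median-of-ratios scaling it was 0.79 (adjusted p = 0.118), and without any 1 library the adjusted p was 0.088 to 0.22. Spry1 was at 28.9 and 34.2 TPM in control EBs and at 17.6 and 17.3 TPM in mutant EBs, 1.80-fold lower (-0.85 ± 0.18, adjusted p = 0.0463; 0.0656 to 0.139 without any 1 library). Etv5 was at 244 and 218 TPM in control EBs and at 107 and 136 TPM in mutant EBs. The difference was short of the threshold as deposited (-0.94 ± 0.24, adjusted p = 0.0784) and past it after median-of-ratios scaling (-1.07, adjusted p = 0.0476). The remaining 6 genes differed in EBs by -0.46 ± 0.27 (Dusp4), 0.72 ± 0.26 (Dusp5), -0.18 ± 0.31 (Dusp6), 0.016 ± 0.32 (Spry2), 0.16 ± 0.39 (Spry4) and 0.026 ± 0.19 (Spred1), with adjusted p of 0.165 to 1. In Pcgf1-KO EBs, for comparison, Etv4 was at 1.25 ± 0.33, Spry1 at -0.32 ± 0.16 and Etv5 at -0.11 ± 0.29.

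Among the mutant cells of the Ring1pm line, EBs against ESCs gave no call for the 9 genes. Of these, 3 had an unadjusted p under 0.05, beside 0.0493% and 0.0838% of all genes called higher and lower. Dusp4 was at 11.6 and 8.40 TPM in mutant ESCs and at 29.2 and 18.8 TPM in mutant EBs (1.24 ± 0.27, adjusted p = 0.199), and Spry2 at 175 and 111 TPM in mutant ESCs and 73.4 and 49.2 TPM in mutant EBs (-1.21 ± 0.32, adjusted p = 0.276). The other 7 differed by 0.14 ± 0.26 (Dusp5), 0.58 ± 0.31 (Dusp6), 0.53 ± 0.18 (Spry1), -0.029 ± 0.39 (Spry4), -0.084 ± 0.19 (Spred1), -0.21 ± 0.20 (Etv4) and -0.34 ± 0.24 (Etv5), with adjusted p of 0.422 to 1. The groups of Dusp4 and Spry2 did not overlap, and neither did those of Dusp6 and Spry1. Spry1 was at 12.2 and 11.8 TPM in mutant ESCs and at 17.6 and 17.3 TPM in mutant EBs. With 2 libraries in each group, a lack of overlap says little, and the share of all genes without overlap is not given. The interaction called none of the 9, with 3 at an unadjusted p under 0.05 (Dusp4 -1.62 ± 0.38, Spry1 -0.70 ± 0.25 and Etv4 0.87 ± 0.29), beside 0.00493% of all genes called in each direction. In control cells of this line, 3 of 6 ligands (Fgf5, Fgf8 and Fgf15) and 1 of 5 receptors (Fgfrl1) rose in EBs, and of 12 immediate early genes 1 fell, Junb. Fos had a mean of 25.4 TPM in control ESCs of this line, against 511 TPM in control ESCs of the Pcgf1 line. In mutant EBs against control EBs, the ligands Fgf5 (-3.36 ± 0.53, adjusted p = 0.0197) and Fgf15 (-1.92 ± 0.33, adjusted p = 0.0245) fell.

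The last 4 lines are given by label with a test and by file name without one, since for 4 of 8 Ring1AB, 6 of 8 Pcgf24, 5 of 8 Pcgf35 and 6 of 8 Pcgf6 libraries the 2 differ. By label, limma called none of the 9 genes in the Pcgf24 line, for EBs against ESCs in control and in mutant and for mutant against control in ESCs and in EBs, where 0% of all genes were called in each of the 4 comparisons. The Pcgf6 line gave the same, with 0% of all genes in each. In the Pcgf35 line none of the 9 was called either, beside 0.0601%, 0%, 0.0401% and 0.0301% of all genes. Unadjusted p was under 0.05 for 0, 0, 0 and 0 of the 9 in the Pcgf24 line, 1, 0, 0 and 0 in the Pcgf6 line and 5, 0, 0 and 0 in the Pcgf35 line. Every labelled group of the Pcgf24 and Pcgf6 lines joins an ESC-named file with an EB-named file, as do the mutant groups of the Pcgf35 line. Dusp4, for example, spanned 5.37 to 39.8 TPM within 1 such group, Pcgf24 control ESCs. If the names are right, the stage difference is part of the spread within groups. The lack of calls by label in these lines therefore cannot decide whether the 9 genes changed. In the Ring1AB line, 7, 9, 9 and 8 of the 9 were called in these 4 comparisons, beside 43.2%, 56.5%, 48.8% and 33.3% of all genes. In that line the 2 libraries of each labelled group share 1 file name condition, so only the names of the groups are in doubt, and no direction is drawn from its labels. The directions by file name given next hold only as far as the names do.

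Read by file name, 4 libraries of each line are ESCs and 4 are EBs, control and mutant together. Dusp6 then lay at 21.9 to 27.3 TPM in ESC-named and 33.2 to 119.8 TPM in EB-named libraries of the Ring1AB line, at 21.7 to 27.3 and 85.5 to 123 TPM in the Pcgf24 line, at 4.31 to 9.76 and 28.04 to 35.2 TPM in the Pcgf35 line, and at 13.1 to 22.6 and 50.1 to 129 TPM in the Pcgf6 line. Every EB-named library was above every ESC-named library of its line. The share of all genes that separate this way by file name was not computed. The counts of lines here and in the next paragraph therefore describe the feedback genes and do not set them apart from other genes. By label the same values overlapped in all 4 lines, for example 22.9 to 91.2 TPM in libraries labelled ESC and 21.7 to 123 TPM in those labelled EB of the Pcgf24 line. For Dusp4, likewise, EB-named libraries lay above ESC-named ones in all 4 lines, with overlap in all 4 by label. Its widest gap by name was in the Pcgf35 line, 1.33 to 2.42 against 19.5 to 24.4 TPM.

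By file name, Spry1 and Spry4 were higher in EB-named libraries without overlap in 3 of the 4 lines, and overlapped in the Pcgf6 line for Spry1 and in the Ring1AB line for Spry4. In the Ring1AB line the EB-named libraries differed between control and mutant. Spry4 was at 10.2 and 10.5 TPM in those named control EB and at 76.05 and 80.2 TPM in those named mutant EB, and Spry1 at 53.2 and 53.3 TPM and at 20.8 and 21.2 TPM. Etv4 was lower in EB-named libraries without overlap in 2 lines, at 41.2 to 46.5 against 21.9 to 36.7 TPM in the Pcgf35 line and 79.5 to 119 against 50.3 to 70.3 TPM in the Pcgf6 line, overlapped in the Pcgf24 line, and was higher in the Ring1AB line (11.5 to 32.4 against 34.5 to 83.8 TPM). Spry2 was lower without overlap only in the Pcgf35 line (91.8 to 106 against 54.4 to 57.9 TPM) and higher in the Pcgf24 and Pcgf6 lines. Spred1 was higher without overlap in 1 line, and Etv5 and Dusp5 in 2 each. Labels put EBs apart from ESCs, without overlap, for Dusp5 in the Pcgf6 line (higher). In the Ring1AB line they did so for Dusp5, Spry2, Spry4 and Etv5, and no direction is drawn from its labels. No other gene was apart by label in any of the 4 lines.

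**Figure D5:**
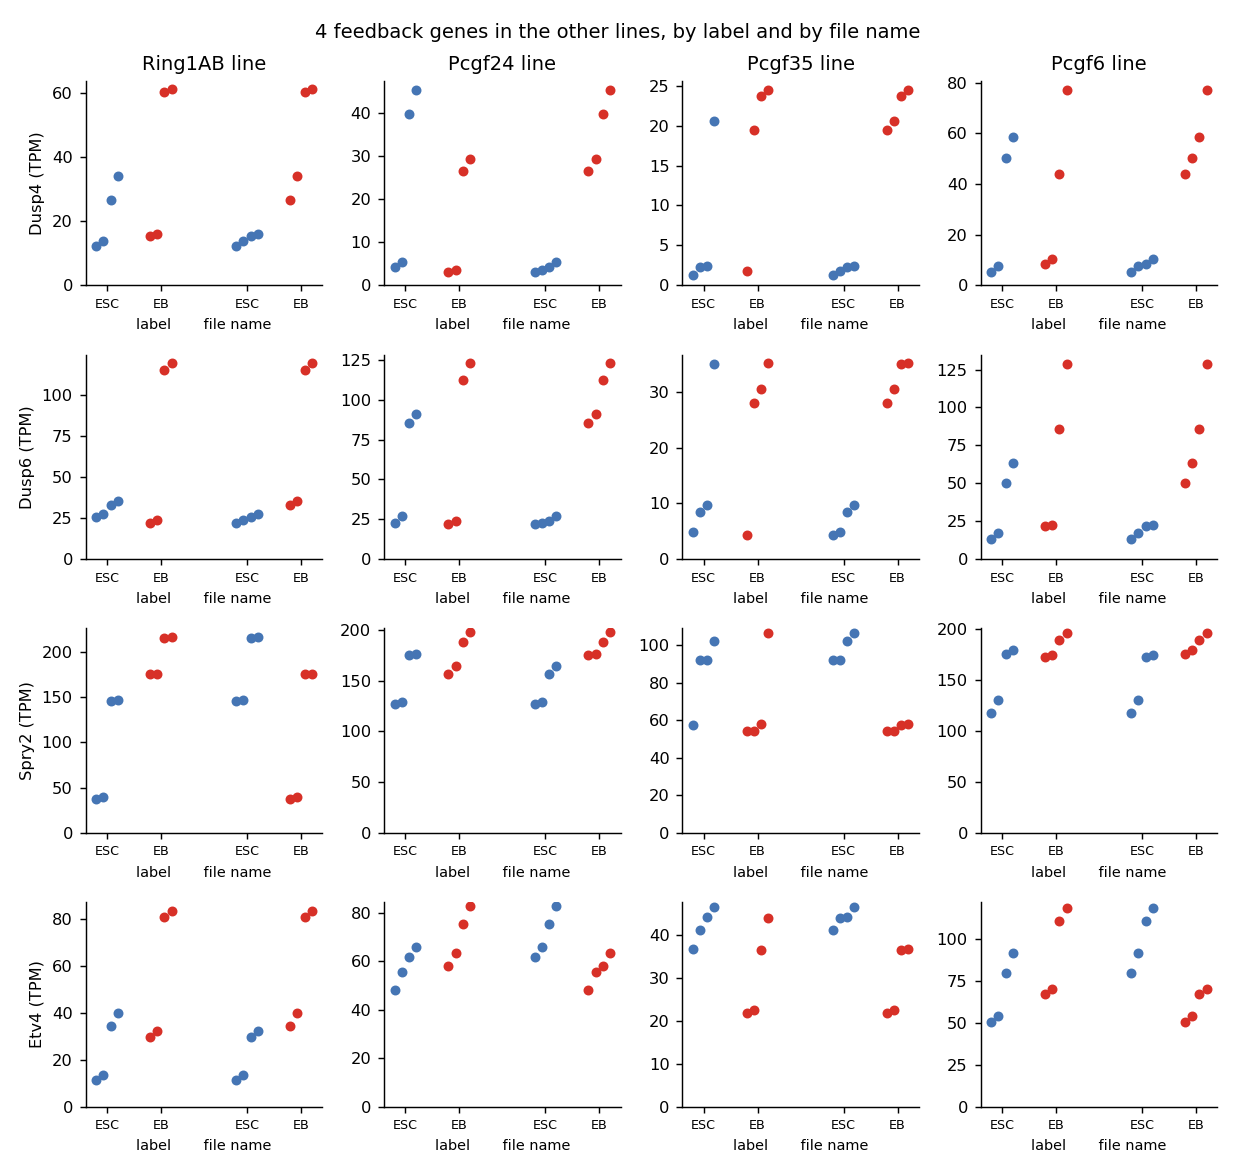
TPM of Dusp4, Dusp6, Spry2 and Etv4 in the 8 libraries of each of the Ring1AB, Pcgf24, Pcgf35 and Pcgf6 lines, split into ESCs (blue) and EBs (red) by sample label on the left of each panel and by file name on the right (y axis, TPM from 0). For Dusp4 and Dusp6 the red and blue points overlap by label and separate by file name in all 4 lines.

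Over the 19 libraries of the Pcgf1 line, Dusp4 and Dusp6 ran closest together of the 9, with a Pearson r of 0.95 on the log2 scale. Within groups, r was 0.92, and within groups and library series 0.40. Within groups and series the closest pair was Dusp4 and Spry1 (0.83), followed by Spry4 and Etv5 (0.63). Dusp6 and Spry2 had an r of -0.22 over all libraries and 0.95 within groups, or 0.49 within groups and series. Spry1 and Spry2 were at -0.62 over all libraries and 0.67 within groups, and Etv4 and Etv5 at 0.053 and 0.0036. These libraries share series, stage and genotype, so r is a description of them.

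Among 13400 genes with a mean of at least 1 TPM, the 5 with the pattern most like Dusp6 were Mycl (0.98), Foxo4 (0.97), Usp25 (0.97), Enc1 (0.96) and Maea (0.96), and Dusp4 ranked 6. The genes most like Spry4 were Uso1 (0.90), Kcnk6 (0.90), Homer1 (0.90), Ptprk (0.89) and Ptprg (0.88). Those most like Etv4 were Olig2 (0.93), Tmem79 (0.92), Gbx2 (0.89), Reep6 (0.89) and Cdc42ep1 (0.89). Etv5 ranked 6799 for Etv4, and Spry4 ranked 407. Group and series means were left in for these r values and ranks, and the part of the library series in them was not tested.

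TPM are scaled by length, so levels can be set side by side. In control ESCs of the Pcgf1 line the order was Spry2 at 233 ± 45.3 TPM (SD, n = 4), Etv5 at 223 ± 61.9 TPM (SD, n = 4), Dusp6 at 49.8 ± 26.9 TPM (SD, n = 4), Spry4 at 38.4 ± 13.7 TPM (SD, n = 4), Etv4 at 35.5 ± 16.5 TPM (SD, n = 4), Dusp5 at 29.9 ± 18.1 TPM (SD, n = 4), Spred1 at 23.5 ± 1.52 TPM (SD, n = 4), Dusp4 at 16.9 ± 9.58 TPM (SD, n = 4) and Spry1 at 14.9 ± 2.92 TPM (SD, n = 4). Only the step from Etv5 to Dusp6 was wider than the ranges of the neighbours, and all other neighbours overlapped. In control EBs Etv5 stood first at 306 ± 97.2 TPM (SD, n = 5), above Dusp6 at 133 ± 74.2 TPM (SD, n = 5) without overlap. Dusp6 overlapped with Spry2 at 120.2 ± 42.04 TPM (SD, n = 5), and Dusp5 was last at 27.1 ± 16.2 TPM (SD, n = 5). With receptor and MEK inhibitors present in ESCs, none of the 9 was listed at 0 in any control library, and the summed level of the 9 lay between 505 and 823 TPM across control ESCs and between 592 and 1182 TPM in control EBs.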

How the data were processed

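Poly(A) RNA was sequenced from 59 libraries of 6 mouse lines. Per the methods and labels, the authors aligned single-end reads to mm9 with STAR 2.5.2b and counted them on exons. Each deposited file gives TPM per gene, and how the authors made TPM from counts is not given in the sources used here. The study's own fold changes came from DESeq2 on counts and were not used. Whole reads cannot be recovered from TPM, so depth and its precision are unknown.

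Groups were taken from the sample labels. The condition in the file name matched the label in all 27 libraries of the Pcgf1 and Ring1pm lines and differed in 21 of 32 of the other lines. A Pcgf1-KO EB library carries replicate number 4 in its title and 5 in its characteristics, and the title was used. No 2 libraries held identical values.

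From the TPM, log2(TPM + 0.1) was fitted per line with limma 3.58.1 (R 4.3.3), with empirical Bayes and a mean-variance trend, over genes above 0 in at least 1 library. Tests were two-sided, with Benjamini-Hochberg adjustment over all genes of the line. The procedure was tested on simulated data with 200 changed genes, in which libraries varied independently. That test therefore does not cover libraries that deviate together. Same-numbered libraries of the Pcgf1 line deviated from their group means together (r of 0.317 to 0.653 over 13400 genes in every pair), so a fit with the replicate number of the titles as a block is reported where it changes a call. Some libraries of replicates 4 and 5 that share a number differ in header prefix. The alternatives were a pseudocount of 1, a filter at a mean of 1 TPM, median-of-ratios scaling, quantile normalization, this block, fits restricted to the compared groups, leaving out each library, and leaving out the library with 2 replicate numbers. Blocks of the 3 library series and of the 4 header prefixes were added after seeing the data.

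The 9 genes and the gene lists were chosen with earlier results of these data known. All 9 are given by value or count in every comparison of the Pcgf1 and Ring1pm lines. Of each other list, the 2 highest and 2 lowest differences in control EBs against control ESCs of the Pcgf1 line are named, among genes whose mean reached 1 TPM in either group, and for Dusp6, Spry4 and Etv4 the 5 genes of highest r over the 19 libraries. Genes beyond that rule (Fgf8, Dusp9, Phlda1, Epha2, Atf3, Junb, Fgf4 in Pcgf1-KO ESCs and the markers named for the mutants among them) were named after their values were seen. A result that this rule would name is not reported here.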

Additional observations from a re-analysis of the deposited data

Results flagged for a closer look

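Dixon's ratio was computed for the 9 genes in the 4 groups of the Pcgf1 line. Of these 36 cases, 2 had a library that stood apart, both of Etv4, and chance gives about 1 in 20. In control EBs of the Pcgf1 line, replicate 1 was lowest at 29.9 TPM, against 63.4 TPM for the next library (ratio 0.743). In Pcgf1-KO ESCs, replicate 1 was again lowest at 54.4 TPM, against 101 TPM for the next (ratio 0.815).

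The effect of the knockout on Spry1 differed between ESCs and EBs in the fit with the replicate block, by -0.64 on the log2 scale, and this difference did not pass without the block.

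In the joint fit of the Ring1pm and Pcgf1 lines, the EB minus ESC difference in controls was called different for 4 genes, with or without the block. Spred1 differed by -1.12 without a block and by -1.15 with it. Its call without the block was lost when Ring1pm control ESC replicate 1 or control EB replicate 2 was left out. With the block, Etv4 differed by -1.91, Dusp4 by 1.52 and Dusp5 by 0.81. These genes did not pass in the reported joint fit without it (adjusted p = 0.0647, 0.325 and 0.662). The share of all genes called with the block is not given.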

How the results depend on the processing

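Of 3056 values of the 9 genes, their counts and their medians computed under the alternatives, 2695 were labelled unchanged. For a single gene this label means the same direction and the same side of the threshold, so it includes genes uncalled in both fits. For a count it means no change or a change within a set fold limit. Counts by label of the other lines are included, and in the Pcgf24, Pcgf35 and Pcgf6 lines these were 0 as reported. For a median it means a shift smaller than the SD between libraries within groups, whatever its sign. The number unchanged is therefore no measure of how stable the calls were. Another 95 values, all of single genes, changed sign, none of them of a gene that had passed the test as reported. The cause of the changes below was not tested. Counts of genes below are given without the share of all genes called under the same alternative. That share can change too. With the replicate block, for example, the share of all genes that rose in control EBs of the Pcgf1 line was 20.7%, against 11.5% without it. The counts below therefore do not set the 9 genes apart from other genes.

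In the Pcgf1 line, the replicate block raised the number of the 9 genes that rose from 3 to 7 in control EBs and from 2 to 6 in Pcgf1-KO EBs, where 2 fell. Between Pcgf1-KO and control it gave 3 that rose in ESCs, 2 that rose and 2 that fell in EBs, and 1 in the interaction. A block of the 3 library series, chosen after seeing the data, gave 7, 6, 2, 3, 2, 2 and 1 in the same order, and a block of the 4 header prefixes, also chosen after seeing the data, gave 7, 6, 2, 3, 2, 1 and 1. Signs turned for Dusp5 in control EBs against ESCs (0.011 with the replicate block and 0.012 with the prefix block) and for Dusp4 in Pcgf1-KO against control ESCs (0.026, 0.050 and 0.056 with the replicate, series and prefix block). They also turned for Dusp4 in the interaction (-0.0082 with the series and -0.015 with the prefix block) and for Dusp6 in the interaction (0.066 without the Pcgf1-KO EB library whose labels give 2 replicate numbers).

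Scaling moved the same counts. Median-of-ratios scaling and quantile normalization each gave 5 that rose in control EBs (Dusp4 and Etv4 joined), 4 in Pcgf1-KO EBs (Dusp4 and Dusp6 joined), and 1 in Pcgf1-KO ESCs and 1 in Pcgf1-KO EBs against control (Etv4). Etv4 also passed in both with a mean of at least 1 TPM (1 gene in each), and in ESCs with a pseudocount of 1 (1 gene). A fit of only the groups compared left 1 that rose in Pcgf1-KO EBs against ESCs, ended the call of Dusp6 in control EBs (adjusted p = 0.0652), and gives no interaction.

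In the Ring1pm line, control EBs against ESCs had 0 genes that fell with median-of-ratios scaling and 0 in the fit of only those groups. Mutant against control ESCs had 0 that rose with a pseudocount of 1, quantile normalization or only the groups compared. In EBs, 0 rose under these 3 and under median-of-ratios scaling, and 0 fell with only the groups compared, but 2 fell with median-of-ratios scaling and 2 with a mean of at least 1 TPM. Its replicate numbers give 2 pairs that share only a number (r of deviations 0.258 to 0.381 over 13695 genes). With them as a block, 3 genes instead of 2 rose in control EBs against ESCs (Dusp6 joined, adjusted p = 0.00296), 2 rose in mutant ESCs, 2 fell in mutant EBs and 1 fell in mutant EBs against ESCs. Among uncalled genes, Etv4 in ESCs turned to -0.092 with median-of-ratios scaling, and in EBs Spry2 to -0.12 and Spred1 to -0.10. With quantile normalization, Spry2 turned to -0.020 and Spred1 to -0.069 in EBs, and Spry4 to 0.030 in mutant EBs against ESCs. In the difference between the lines, 2 genes were lower with either scaling or with a mean of at least 1 TPM, and with the block 2 were lower and 2 higher.

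Leaving out each library in turn gave these ranges for the values that changed. In the Pcgf1 line, 2 to 4 genes rose in Pcgf1-KO EBs against ESCs, and 0 to 1 in Pcgf1-KO against control ESCs and 0 to 1 in EBs. Log2 differences there ranged as follows: in control EBs against ESCs Dusp5 -0.45 to 0.22, in Pcgf1-KO EBs against ESCs Spry4 -0.032 to 0.39, in Pcgf1-KO against control ESCs Dusp4 -0.38 to 0.18, Dusp5 -0.087 to 0.59, Dusp6 -0.092 to 0.43, Spry2 -0.097 to 0.14, in EBs Dusp4 -0.17 to 0.30, Dusp5 -0.39 to 0.099, Dusp6 -0.15 to 0.29, Etv5 -0.29 to 0.049, and in the interaction Dusp4 -0.14 to 0.42, Dusp6 -0.36 to 0.16, Etv4 -0.55 to 0.026, Etv5 -0.027 to 0.38. In the Ring1pm line, 0 to 2 genes rose in control EBs, and the counts of 1 that fell there, rose in mutant ESCs, and rose and fell in mutant EBs were all 0 whichever library was left out. Log2 differences were in control EBs against ESCs Spry4 -0.75 to 0.30, Etv5 -0.22 to 0.44, in mutant EBs against ESCs Dusp5 -0.079 to 0.35, Spry4 -0.39 to 0.33, Spred1 -0.21 to 0.046, Etv4 -0.42 to 0.0054, in mutant against control ESCs Spry4 -0.56 to 0.49, Spred1 -0.33 to 0.050, Etv4 -0.13 to 0.24 and a median of -0.038 to 0.49, in EBs Dusp6 -0.43 to 0.076, Spry2 -0.27 to 0.30, Spry4 -0.081 to 0.41, Spred1 -0.10 to 0.16, and in the interaction Spry4 -0.33 to 0.72, Spred1 -0.024 to 0.36. For the difference between the lines, 0 to 2 genes were lower and Dusp6 was -0.45 to 0.24. Where 1 library was left in a group, it is assumed to vary like the other groups. Depth is unknown, so what it limits could not be measured.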
